A study of Mus musculus with 12 samples.

Results

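The ubiquitin-specific peptidases, named Usp1 to Usp54 with letter suffixes for some copies, were followed in the blood of mice kept at normal oxygen, after chronic hypoxia, and after recovery from it. A gene was a member if a probe set, a group of short oligonucleotides that reads 1 transcript, carried a symbol made of Usp and a number and named no other gene. By this rule 49 of the 18194 genes with such a probe set were members, with 123 of the 34958 probe sets that name 1 gene. Usp46os2, an antisense RNA, and Usp6nl, which is not a peptidase, fell outside the rule, as did 4 probe sets that name several genes, among them the multicopy Usp17lc and Usp17ld. All mice were C57Bl/10 and obtained at 3 months of age. There were 4 mice in each of 3 groups and 1 mouse per array (Affymetrix mouse expression arrays, whole blood RNA). NX mice stayed at 21% oxygen. CH mice spent 2 weeks in normobaric chronic hypoxia, in which oxygen was lowered stepwise to 8%. REC mice had the same 2 weeks of hypoxia and then 2 weeks at 21% oxygen. The protocol ran longest for REC, and the paper does not state the age of the mice at harvest. No allele or drug was used, no source read here states the sex of the mice, and the titles and protocol were followed where 1 label field has the hypoxic mice as normoxic.

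Ubiquitin-specific peptidases are cysteine proteases that take ubiquitin, or chains of it, off other proteins, and they form the biggest family of deubiquitinases. By doing so they can save a protein from the proteasome, recycle ubiquitin, or switch off signals that ubiquitin carries on histones, DNA repair factors and receptors. In blood, ubiquitin and the proteasome are known for clearing proteins and organelles from maturing red cells, and ubiquitin chains for signalling in lymphocytes.

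The deposited signals, on a linear scale with a mean near 150 on every array after trimming 2% at each end, were fitted as log2(signal + 16), so every log2 change below is on that scale and understates the change of dim genes. A call needs a limma p under 0.05 after adjustment over the 45101 probe sets of the array, and at least a 2-fold change. The mixture of cells in the blood differed between the groups. Of 9 measured erythroid markers, 8 were called higher in CH and 4 lower in REC, and their summed signal ranged from 28623 to 42288 in NX, 129927 to 217866 in CH and 10376 to 20760 in REC. All 7 measured T cell markers and 6 of 7 B cell markers were called lower in CH, with T cell sums of 4549 to 6305 in NX, 1068 to 4037 in CH and 8326 to 8721 in REC. Of 6 NK cell markers 2 were called higher in REC, and in CH 1 was higher and 2 were lower, with sums of 2641 to 4511 in NX, 1274 to 2286 in CH and 6895 to 10973 in REC. Of 6 monocyte markers 2 were called lower in CH. No neutrophil or platelet marker was called, and no marker lay below 16 on every array. In whole blood, fewer cells of a type, less RNA per cell and a larger share of RNA from other cells cannot be told apart. Each array has nearly the same trimmed mean, so a lower signal is relative to that mean and not a measured loss. The trimmed mean leaves out the brightest 2% of probe sets, so signals are not shares of all RNA. The bacterial control RNAs added before hybridization, whose mean log2 signal was 12.27 to 13.06 in NX, read 14.04 to 14.65 in CH and 11.64 to 12.17 in REC. Scaling each array on these controls moved the median log2 change of all genes to -0.84 for CH against NX, 0.57 for REC against NX and -1.50 for CH against REC. Values under this scaling include that shift.

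After 2 weeks of hypoxia, 7 of the 49 Usp genes were called higher than in NX, a share of 14.3% beside 9.08% of all genes. Of these, Usp25, Usp45, Usp15, Usp32, Usp14 and Usp40 were higher on every CH array than on any NX array. A further 13 were called lower, 26.5% beside 19.5% of all genes: Usp42, Usp48, Usp24, Usp38, Usp47, Usp33, Usp54, Usp12, Usp34, Usp39, Usp28, Usp22 and Usp11. The other 29 were not called, and the median log2 change was -0.48 over the members and 0.05 over all genes. Called or not, 7 of the 49 members, Usp4 among them, had all CH arrays above all NX arrays, beside 11.03% of all genes. In 15 all CH arrays lay below all NX arrays, beside 21.36%. With the arrays scaled on the hybridization controls, 3 members were called higher and 32 lower, beside 1.50% and 44.9% of all genes, and no member called here changed sign. Usp15, Usp25 and Usp45 were the 3 that stayed called higher. Those called lower with this scaling and not without it included Usp7 (-2.47), Usp8 (-1.50), Usp9x (-1.93), Usp37 (-1.80) and Usp53 (-1.31).

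**Figure D1:**
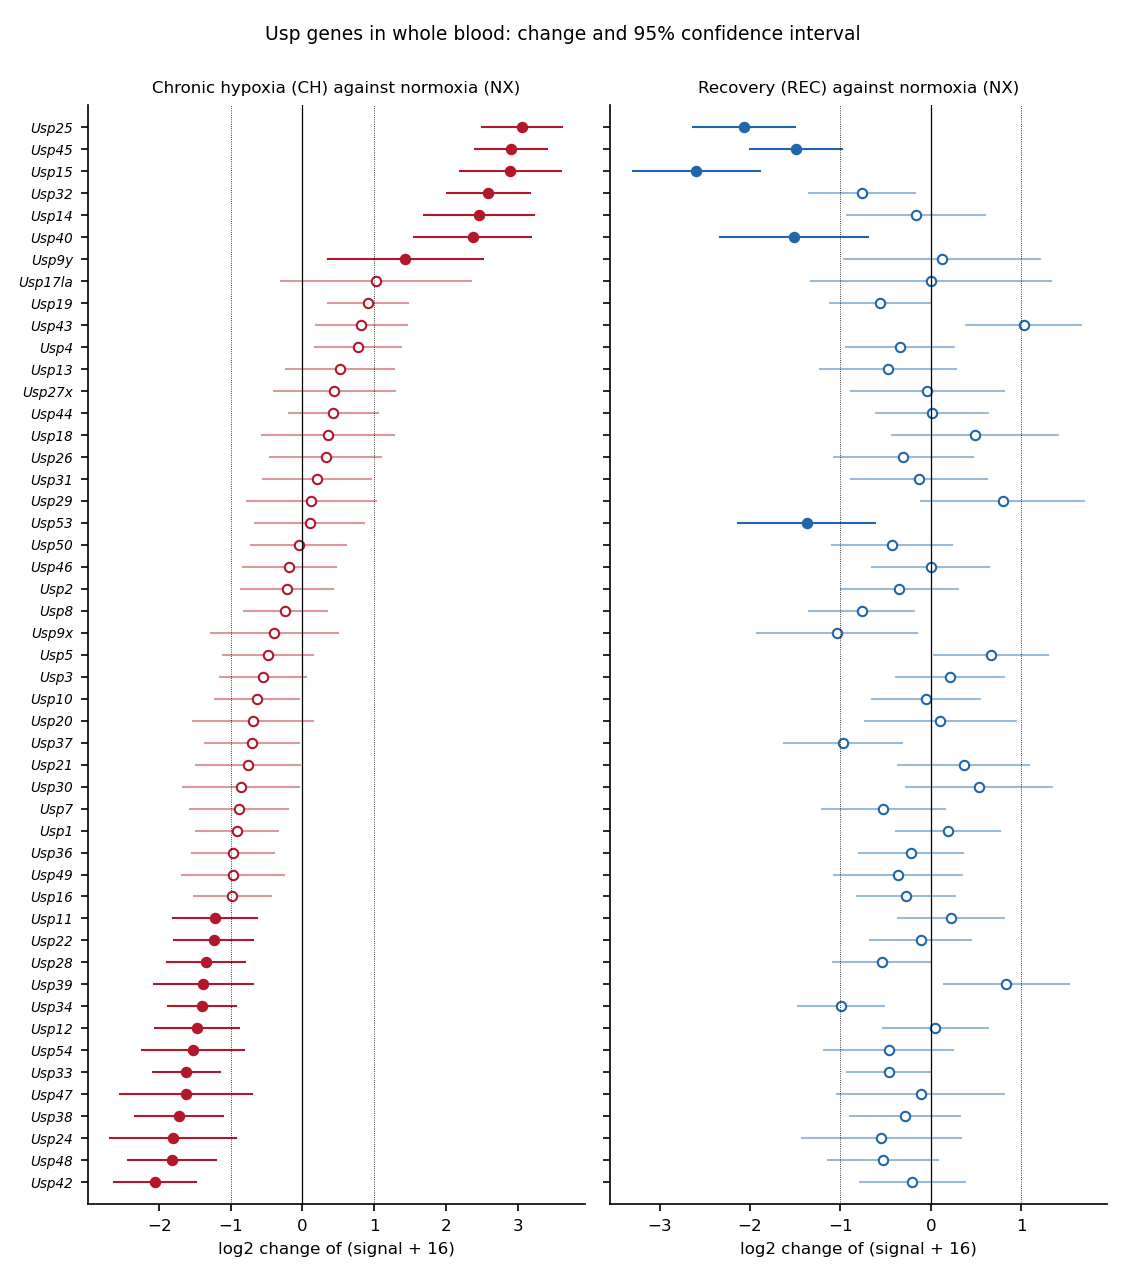
Log2 change of (signal + 16) of the 49 Usp genes, as points with 95% confidence intervals from the limma fit, for CH against NX (left) and REC against NX (right), 4 arrays in each group. Filled points are called, and the dotted lines mark a 2-fold change. Usp25, Usp45, Usp15 and Usp40 are the filled points at the top left that are also filled, on the opposite side of 0, at the right.

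Usp15, Usp25, Usp45 and Usp40 passed the test in both directions, above NX in CH and below NX in REC, which was so for 208 of all genes (1.14%). Both comparisons use the same NX arrays. Usp15 carries a DUSP domain, is related to Usp4 and Usp11, and is known for acting on TGF-beta receptor signalling. Its signals were 959.8, 1964, 1575 and 1504 in NX, 8807, 12464, 8129 and 15948 in CH and 378, 147, 184 and 258 in REC. The 3 groups did not overlap, with CH highest and REC lowest. The log2 change was 2.90 ± 0.33 (SE, adjusted p = 2.62e-05) in CH and -2.60 ± 0.33 (SE, adjusted p = 0.000886) in REC, against NX in both. Usp25 trims ubiquitin chains in innate immune signalling and is related to Usp28. Its signals were 426, 692, 627 and 685 in NX, 3535, 5505, 4851 and 7146 in CH and 147, 115, 115 and 149 in REC. Again no array of one group reached the range of another. Usp25 differed from NX by 3.06 ± 0.26 (SE, adjusted p = 3.39e-06) in CH and by -2.07 ± 0.26 (SE, adjusted p = 0.000886) in REC. Usp45, a relative of Usp16 that acts on a DNA repair nuclease, read 263, 401, 319 and 325 in NX, 2193, 2868, 1961 and 3318 in CH and 114, 104, 90.9 and 111 in REC. Its groups were as separate, with log2 changes of 2.91 ± 0.24 (SE, adjusted p = 2.57e-06) and -1.49 ± 0.24 (SE, adjusted p = 0.00308). Usp40 has few known substrates. It read 72.5, 167, 129.6 and 168 in NX, 768, 588, 664 and 966 in CH and 71.2, 40.3, 44.3 and 5.92 in REC, so that all REC arrays lay under all NX arrays, the highest REC array just below the lowest NX array. Its log2 changes were 2.38 ± 0.38 (SE, adjusted p = 0.000395) and -1.52 ± 0.38 (SE, adjusted p = 0.0345). The REC call of Usp40 was lost under 15 of 26 alternatives, among them leaving out replicate 2, 3 or 4 of NX or of REC (adjusted p from 0.0749 to 0.106). Scaling on the hybridization controls ended the REC calls of Usp40 (-1.01) and Usp45 (-0.78). The erythroid marker sum moved the same way as these 4 genes, higher in CH and lower in REC with no overlap between groups. Its part in their change was not tested.

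**Figure D2:**
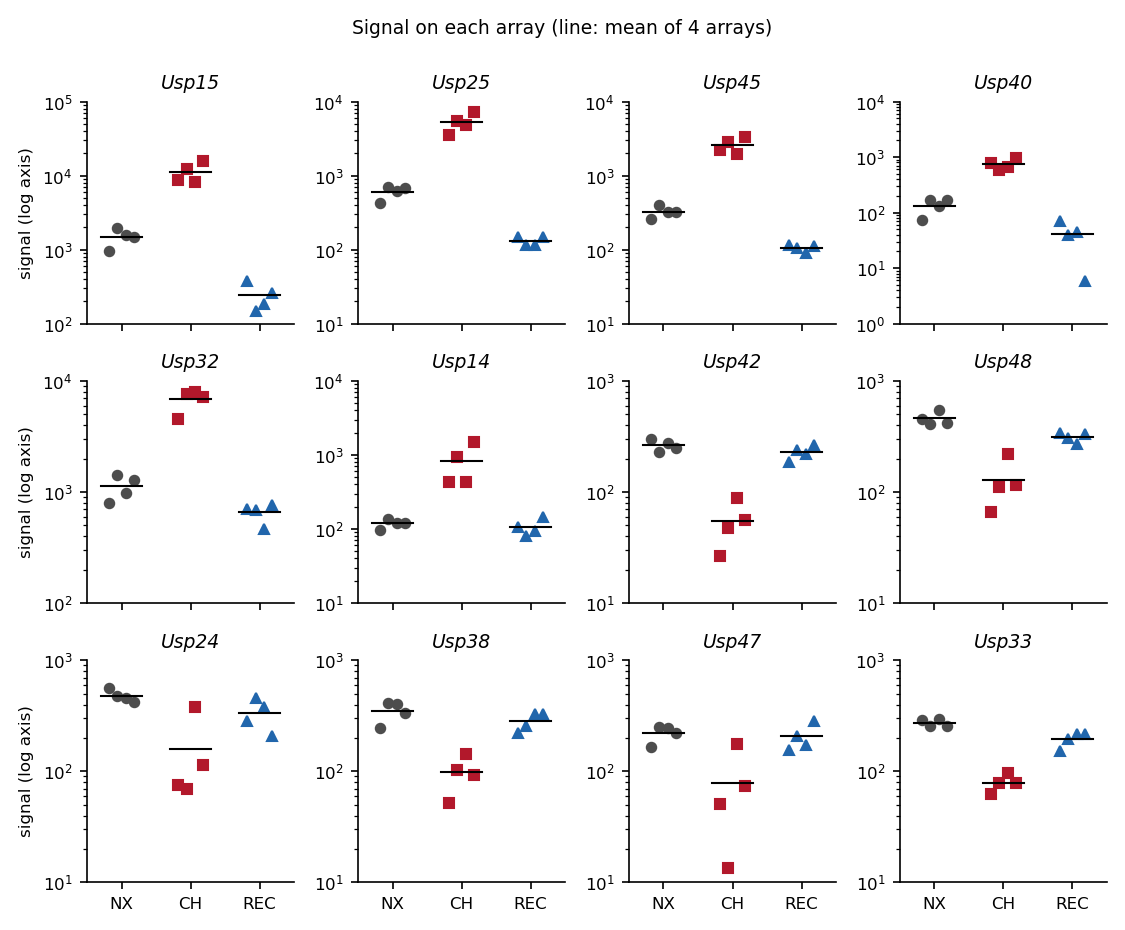
Signal on each array (log axis, 1 point per mouse, lines at the mean of 4 arrays) of 12 Usp genes in NX, CH and REC. In the top row the groups order as REC below NX below CH. Usp32 and Usp14 rise in CH, and in the 6 genes from Usp42 to Usp33 the CH points lie lowest, with 1 CH array near the other groups for Usp24 and Usp47.

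The start regions of these genes are shown because the 4 moved together. They are the 250 bases before the transcription start in RefSeq on GRCm38.p6, at chr10:123197020-123197269 (minus strand), chr16:77013819-77014068 (plus strand), chr4:21776020-21776269 (plus strand) and chr1:88008552-88008801 (minus strand). Usp32 and Usp48, a gene that was lower in CH, are added at chr11:85139956-85140205 (minus strand) and chr4:137593922-137594171 (plus strand). Capitals mark ACGTG, the core of the hypoxia response element, which was searched on both strands together with AGATAA, a form of the GATA factor motif. The letters ACGTG are also part of CACGTG, the E-box.
Usp15: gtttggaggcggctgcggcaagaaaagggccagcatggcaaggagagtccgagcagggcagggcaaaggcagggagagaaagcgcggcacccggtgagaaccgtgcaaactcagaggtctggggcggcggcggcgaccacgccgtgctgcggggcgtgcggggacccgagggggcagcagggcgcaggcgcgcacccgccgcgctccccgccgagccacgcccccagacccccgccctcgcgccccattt
Usp25: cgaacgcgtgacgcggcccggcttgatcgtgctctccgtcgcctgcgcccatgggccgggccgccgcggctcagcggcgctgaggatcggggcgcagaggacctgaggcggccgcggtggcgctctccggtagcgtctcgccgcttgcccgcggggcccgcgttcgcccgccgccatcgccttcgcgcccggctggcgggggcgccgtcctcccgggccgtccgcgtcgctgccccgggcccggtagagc
Usp45: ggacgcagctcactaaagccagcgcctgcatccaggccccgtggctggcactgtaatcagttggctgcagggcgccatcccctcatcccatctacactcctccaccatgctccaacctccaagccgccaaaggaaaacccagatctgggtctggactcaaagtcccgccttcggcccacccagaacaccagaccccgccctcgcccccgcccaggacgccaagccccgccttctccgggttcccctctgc
Usp40: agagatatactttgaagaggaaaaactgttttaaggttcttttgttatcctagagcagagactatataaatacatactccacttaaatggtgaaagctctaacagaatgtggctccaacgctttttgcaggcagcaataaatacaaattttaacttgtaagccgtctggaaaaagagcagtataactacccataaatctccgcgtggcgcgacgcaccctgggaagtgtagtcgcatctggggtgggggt
Usp32: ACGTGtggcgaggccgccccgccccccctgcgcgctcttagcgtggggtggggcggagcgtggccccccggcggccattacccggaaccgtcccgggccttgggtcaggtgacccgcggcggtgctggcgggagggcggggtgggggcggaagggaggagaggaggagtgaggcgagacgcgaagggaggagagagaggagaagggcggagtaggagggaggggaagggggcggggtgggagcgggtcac
Usp48: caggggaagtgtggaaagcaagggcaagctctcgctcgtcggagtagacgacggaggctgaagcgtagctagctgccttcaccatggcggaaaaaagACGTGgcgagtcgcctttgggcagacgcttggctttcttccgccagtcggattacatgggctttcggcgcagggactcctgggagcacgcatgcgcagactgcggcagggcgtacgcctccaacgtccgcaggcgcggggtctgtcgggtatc
None of the 4 windows of the genes that rose and then fell holds ACGTG or AGATAA. Of the 37 members with a promoter entry, 13 hold ACGTG, beside 16.6% of 32851 promoters of the same length. The 13 are Usp4, Usp7, Usp12, Usp16, Usp24, Usp28, Usp31, Usp32, Usp36, Usp37, Usp38, Usp48 and Usp50. Their GC content ran from 46.0% (Usp50) to 85.2% (Usp7), and all but Usp50 lay above the median promoter. ACGTG itself holds a CG, and the share of all promoters was not matched for GC content. Among genes with an entry, 1 of 6 called higher in CH (Usp32) and 5 of 9 called lower (Usp12, Usp24, Usp28, Usp38 and Usp48) hold it. AGATAA is in 0 of the 37, beside 9.99% of all promoters. The Usp40 window has a GC content of 42.0% and those of Usp15, Usp25 and Usp45 of 73.6%, 80.0% and 65.2%, where the median promoter has 52.4%. Usp1, Usp5, Usp9x, Usp14, Usp18, Usp22, Usp33, Usp39, Usp42, Usp43, Usp44 and Usp53 had no entry. A match is a description of letters in a window and shows no binding.

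Usp32 and Usp14 rose in CH and were not called in REC. Usp32, a membrane-bound peptidase with calcium-binding EF hands that acts along the Golgi and endosomes, read 802, 1429, 987 and 1285 in NX, 4586, 7652, 8039.7 and 7181 in CH and 701, 690.4, 461 and 762 in REC. Every CH array lay above every NX array, and every REC array below every NX array. Its log2 change was 2.59 ± 0.27 (SE, adjusted p = 1.48e-05) in CH and -0.76 ± 0.27 (SE, adjusted p = 0.142) in REC. Usp14 binds the proteasome and removes ubiquitin from proteins about to be degraded. Its signals were 95.7, 139, 122 and 119 in NX, 436, 936, 436 and 1505 in CH and 106, 79.6, 93.8 and 146 in REC. The CH arrays lay apart from the others and spread widely among themselves, while NX and REC overlapped. Usp14 changed by 2.46 ± 0.36 (SE, adjusted p = 0.000188) in CH, and its REC value was -0.16 ± 0.36 (SE, adjusted p = 0.885). With scaling on the hybridization controls Usp32 was 0.99, Usp14 0.91 and Usp40 0.83 in CH, and none of the 3 was called. Usp9y, the Y-linked relative of Usp9x, was the last of the genes called higher, at 1.43 ± 0.50 (SE, adjusted p = 0.046). Its CH signals of 185, 345, 61.5 and 38.8 reached into the NX range of 21.8 to 62.6, and the call was lost under 15 of 26 alternatives, among them leaving out NX replicate 2, 3 or 4, CH replicate 1 or 2, or any REC array (adjusted p from 0.0506 to 0.145), and scaling on the hybridization controls (0.23).

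Usp42, known to take ubiquitin off a histone, fell most of the members in CH, with signals of 299.9, 231, 278 and 249 in NX, 26.3, 47.9, 88.2 and 56.2 in CH and 186, 239.7, 221 and 267 in REC. All CH arrays lay below all others, and NX and REC overlapped. The log2 change was -2.06 ± 0.27 (SE, adjusted p = 8.38e-05) in CH, and -0.20 ± 0.27 (SE, adjusted p = 0.775) in REC. Usp48, which acts on a histone site ubiquitinated by Brca1, read 459, 413, 552 and 418 in NX, 66.3, 111, 218 and 116 in CH and 339, 305, 272 and 334 in REC. Its CH arrays were lowest, and its REC arrays lay between them and NX without overlap. Usp48 fell in CH by 1.82 ± 0.28 (SE, adjusted p = 0.000327) on the log2 scale, while its REC value of -0.53 ± 0.28 (SE, adjusted p = 0.364) was not called. Usp22, the peptidase of the SAGA complex, was 389 ± 52.6 in NX and 164 ± 74.3 in CH (mean ± SD, n = 4 each), a log2 change of -1.24 ± 0.26 (SE, adjusted p = 0.00248).

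Usp24, a very large relative of Usp9x, read 565, 477, 457 and 423 in NX, 75.2, 69.5, 378 and 115 in CH and 287, 457, 384 and 210.1 in REC. CH replicate 3 lay within the REC range, and the other CH arrays were far below. Its log2 change was -1.80 ± 0.41 (SE, adjusted p = 0.00436) in CH, beside -0.55 ± 0.41 (SE, adjusted p = 0.554) in REC. Usp34, also very large and known in Wnt signalling, averaged 437 ± 41.1 (SD, n = 4) in NX, then 157 ± 32.5 in CH, and 212 ± 29.6 in REC. Usp34 fell by 1.40 ± 0.22 (SE, adjusted p = 0.000365) on the log2 scale in CH, and its REC value of -0.99 ± 0.22 (SE, adjusted p = 0.02) passed the p threshold just short of 2-fold. Usp38 read 247, 412, 405 and 338 in NX, 52.3, 103, 144 and 93.2 in CH and 221, 255, 331 and 326 in REC, with CH below the other groups and NX overlapping REC. The log2 change of Usp38 was -1.72 ± 0.28 (SE, adjusted p = 0.000492) in CH and -0.28 ± 0.28 (SE, adjusted p = 0.685) in REC. Usp47, which acts in base excision repair, read 165, 252, 248 and 222 in NX, 51.0, 13.4, 177 and 73.8 in CH and 157, 207, 174 and 287 in REC. Its CH arrays ran from the lowest value of all to 1 inside the NX range, and it changed by -1.62 ± 0.43 (SE, adjusted p = 0.0112) in CH and by -0.11 ± 0.43 (SE, adjusted p = 0.941) in REC. Usp33, which recycles receptors at membranes and binds the VHL protein, read 288, 254, 299 and 257 in NX, 62.7, 78.1, 97.3 and 78.6 in CH and 152, 195, 217 and 217 in REC. The 3 groups did not overlap, with CH lowest, and the CH log2 change of -1.62 ± 0.22 (SE, adjusted p = 0.000101) stood beside -0.47 ± 0.22 (SE, adjusted p = 0.275) in REC.

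The other genes that fell in CH were Usp54 and Usp39, both long classed as inactive enzymes, Usp12, which needs the Wdr48 protein, Usp28, which is known to stabilise Myc, and Usp11. Usp54 changed by -1.53, Usp12 by -1.47, Usp39 by -1.38, Usp28 by -1.34 and Usp11 by -1.22, with adjusted p of 0.00316, 0.00106, 0.0051, 0.00129 and 0.00389. CH replicate 3 was the highest of the 4 CH arrays for 11 of the 13 genes called lower. The same array had the highest T cell marker sum of the CH arrays (4037, others 1068 to 1338) and the highest B cell marker sum (11743, others 2035 to 5098). Their part in the fall of these genes was not tested. With quantile normalization the calls of Usp22, Usp39 and Usp47 were lost, and with a pseudocount of 64 those of Usp11, Usp28 and Usp54. All 13 stayed called lower without CH replicate 3.

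After recovery, 5 Usp genes were called lower than in NX, a share of 10.2% beside 1.79% of all genes, and 0 were called higher, beside 2.5%. At an unadjusted p under 0.05, 12 were lower and 3 higher, beside 7.04% and 11% of all genes, and 0 were called higher with the ordinary test without moderation. The 5 were Usp15, Usp25, Usp45 and Usp40 from above and Usp53. Called or not, 15 of the 49 members had all REC arrays below all NX arrays, beside 8.88% of all genes. In 2 all REC arrays lay above, beside 12.6%. The NK cell and T cell marker sums were higher on every REC array than on any NX array, and their part in the REC values was not tested. The median log2 change was -0.28 over the members and -0.02 over all genes. Usp53, a partner of tight junction proteins that was long classed as inactive, read 265, 186, 172 and 179 in NX, 412, 293, 176 and 93.4 in CH and 82.0, 49.7, 62.8 and 75.3 in REC. All REC arrays lay below all NX arrays, whereas the CH arrays spread across the NX range. The log2 change was -1.37 ± 0.36 (SE, adjusted p = 0.0392) in REC and 0.10 ± 0.36 (SE, adjusted p = 0.859) in CH. The REC call of Usp53 was lost under 14 of 26 alternatives, among them leaving out any NX or REC array (adjusted p from 0.0713 to 0.126) and scaling on the hybridization controls (-0.70). Usp15, Usp25 and Usp45 were the 3 members left when the array removed was NX replicate 2, NX replicate 3 or any REC array other than replicate 1. With scaling on the hybridization controls 6 members were called higher in REC (Usp5, Usp21, Usp29, Usp30, Usp39 and Usp43) and 2 lower (Usp15 and Usp25), beside 24.1% and 0.665% of all genes.

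Usp9x, a very large peptidase of many substrates in signalling and trafficking, read 969.8, 856, 923 and 957 in NX, 1444, 854, 813 and 236 in CH and 388, 409, 359 and 669.9 in REC. Every REC array lay under every NX array, and the CH arrays spread beyond both ranges. The REC change of -1.04 ± 0.41 (SE, adjusted p = 0.193) was not called. All 7 probe sets of Usp9x were lower in REC, by log2 values from -0.93 to -1.53, and 2 of the others were called. The gene was called at -1.04 (adjusted p = 0.0262) when CH replicate 4 was left out, and at -1.13 (adjusted p = 0.0107) as the mean of its 7 probe sets. It was also called with array weights (-1.09) and from the 8 arrays of the comparison (-1.04). In CH against REC the probe set used gave 0.65, not called, while all 6 others were called higher in CH, from 1.08 to 1.93. Usp8, which sorts receptors on endosomes with Stam, read 91.9, 95.02, 123 and 84.5 in NX, 48.5, 87.7, 77.4 and 123 in CH and 35.2, 51.0, 49.1 and 74.4 in REC. Its REC arrays did not overlap NX, at -0.76 ± 0.27 (SE, adjusted p = 0.135), short of a call. Usp37, a cell cycle enzyme, was -0.97 in REC and -0.70 in CH, with adjusted p of 0.0885 and 0.103.

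Usp18 and Usp7 were followed for their known roles. Usp18 removes the ubiquitin-like protein ISG15 and not ubiquitin, and responds to interferon. Its signals were 108, 257, 206 and 141 in NX, 74.7, 244, 332 and 362 in CH and 136, 320.0, 314 and 254 in REC, and all 3 groups overlapped. The log2 value was 0.35 ± 0.43 (SE, adjusted p = 0.589) in CH and 0.49 ± 0.43 (SE, adjusted p = 0.634) in REC, with 95% intervals of -0.57 to 1.27 and -0.43 to 1.41. Usp7, which stabilises Mdm2, read 1779, 2869, 2520.1 and 2328 in NX, 653, 1064, 2026 and 1768 in CH and 1568, 1563, 1541 and 1827 in REC. Its CH arrays ran from below the REC range into the NX range. The log2 value of -0.89 ± 0.32 (SE, adjusted p = 0.0508) in CH lay at the p threshold and under 2-fold, and Usp7 was called lower when NX replicate 1 (-1.02), CH replicate 3 (-1.11) or CH replicate 4 (-1.05) was left out, and with quantile normalization (-1.22), array weights (-1.13) and scaling on the hybridization controls (-2.47). REC stood at -0.53 ± 0.32 (SE, adjusted p = 0.44).

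Set directly against REC, CH had 9 members called higher, 18.4% beside 12.3% of all genes, and 15 called lower, 30.6% beside 23.3%. The 9 were Usp15, Usp25, Usp45, Usp40, Usp32, Usp14, Usp19, Usp53 and Usp4. The difference was 5.49 ± 0.33 (SE) for Usp15, 5.13 ± 0.26 for Usp25 and 4.40 ± 0.24 for Usp45. Usp19, anchored in the endoplasmic reticulum, was 734 ± 243 in CH and 244 ± 22.0 in REC, and Usp4 was 1736 ± 733 and 745 ± 85.3 (mean ± SD, n = 4 each). Their differences of 1.48 and 1.12, like that of 1.48 for Usp53, changed sign with scaling on the hybridization controls, to -0.86, -1.27 and -0.61. Among the 15 lower genes, Usp39, a part of the spliceosome, had the largest difference, -2.21 ± 0.32 (SE, adjusted p = 0.000109), with 103 ± 65.2 in CH and 485 ± 94.0 in REC. Usp1, Usp5, Usp21 and Usp30 were called lower here and in neither of the other comparisons, with -1.10, -1.14, -1.12 and -1.39. Usp1 acts on repair factors in DNA damage, Usp5 on free ubiquitin chains and Usp30 on the outer membrane of mitochondria. The other 2 probe sets of Usp1 gave 0.15 and 0.24, and the mean of its probe sets was -0.24, not called. The remaining 10 were Usp11, Usp12, Usp22, Usp24, Usp33, Usp38, Usp42, Usp47, Usp48 and Usp54, each also called lower in CH against NX. Leaving out 1 array ended the call of Usp24 in 4 cases (CH replicate 1 or 2, REC replicate 2 or 3, adjusted p from 0.0718 to 0.0902) and of Usp54 in 4 (CH replicate 1 or 4, REC replicate 1 or 2, adjusted p from 0.0509 to 0.0667). Usp1 fell short of 2-fold without CH replicate 2 (-0.95), Usp4 without CH replicate 4 (0.88) and Usp21 without CH replicate 4 (-0.78) or REC replicate 3 (-0.96). Scaled on the hybridization controls, 4 were called higher (Usp15, Usp25, Usp40 and Usp45) and 34 lower, beside 1.63% and 60.4% of all genes. The median difference was -0.36 over the members and 0.07 over all genes.

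By role, the 3 peptidases that work with Wdr48 (Usp1, Usp12 and Usp46) had 1 called lower in CH and 0 called in REC, with a median log2 change of -0.91 in CH. Of 10 that act on chromatin or in the nucleus, 2 were called lower in CH (Usp22 and Usp42), 0 higher, and 0 in either direction in REC, with a CH median of -0.93. The share lower, 20.0%, is near the 19.5% of all genes, and the other roles hold few members to set beside a share of all genes. In this group Usp3, Usp7, Usp16, Usp36 and Usp49 had log2 values of -0.55, -0.89, -0.98, -0.96 and -0.97 in CH. Usp21 was at -0.76, while Usp27x and Usp44 went the other way, at 0.44 and 0.43. Usp16 and Usp36 passed the p threshold (0.0096 and 0.0142) without reaching 2-fold, as did Usp49 (0.0409). Of the 6 on membranes and endosomes 1 rose in CH (Usp32) and 1 fell (Usp33). Usp20, which like Usp33 binds VHL, was -0.69 in CH and 0.10 in REC, and neither was called. Of the 3 at the proteasome or on free chains only Usp14 was called in CH, while Usp5 stood at -0.48 and Usp13 at 0.53. The other 14 members, which the list does not place in a role, had 2 called higher and 3 lower in CH and 2 lower in REC, all named above. In this last group Usp2, Usp10, Usp17la, Usp26, Usp29, Usp31, Usp37, Usp43 and Usp50 were not called in any comparison, with CH values from -0.70 for Usp37 to 1.03 for Usp17la. Usp17la read 773, 387, 79.0 and 91.0 on the CH arrays and 302, 66.5, 60.0 and 77.1 on the NX arrays, and belongs to a family of near-identical copies whose probes may share transcripts. Usp43, a dim gene, had a REC value of 1.03 ± 0.30 (SE, adjusted p = 0.0635), short of a call, and was called higher under 7 alternatives, from 1.01 with array weights to 1.72 with scaling on the hybridization controls. Usp44 lay below 16 on 10 of 12 arrays, Usp27x on 6, and Usp26 and Usp50 on 5 each, so little can be read from them. The brighter part of the probe sets, divided at the median of their mean over all arrays, CH included, held 40 of the 49 members. The CH counts among them were 7 higher and 12 lower. No share of all bright genes stands beside these counts, so no excess can be read from them.

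The other probe sets of a gene give another reading of it, and 36 members had more than 1. In CH against NX, 13 of the 30 other probe sets of called members were called the same way, 17 were not called and 0 were called the opposite way. In REC against NX, 4 of 13 were called the same way and 0 the opposite way, and in CH against REC 14 of 37 the same way and 1 the opposite way. For Usp15, 3 of 5 others were called in both comparisons, at 1.41, 1.13 and 1.42 in CH and -1.53, -1.39 and -1.29 in REC. Both other probe sets of Usp45 were called in CH, at 3.17 and 1.12, as was the other one of Usp25, at 1.25. In REC those of Usp45 were at -1.46, called, and 0.09, not called. The other one of Usp25 was at -0.69 in REC and not called. For Usp40 none of 3 others was called, with -0.53, -0.09 and 0.00 in CH, so its change rests on 1 probe set. With all probe sets of a gene averaged, the CH calls of Usp12, Usp14, Usp22, Usp34, Usp40 and Usp47 and the REC calls of Usp40, Usp45 and Usp53 were lost. Usp14 had another probe set at 2.10 in CH, called, and 2 at -0.25 and -0.90, not called. One probe set of Usp19 was called higher in CH, at 2.15, though the one used was not, and 2 of Usp3 were called lower, at -1.18 and -1.34. For Usp47 one probe set went against the gene's call in CH against REC, at 1.95 where the one used gave -1.51. It was also called lower in REC against NX, as was 1 of Usp7 (-1.50) and 1 of Usp14 (-1.16).

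**Figure D3:**
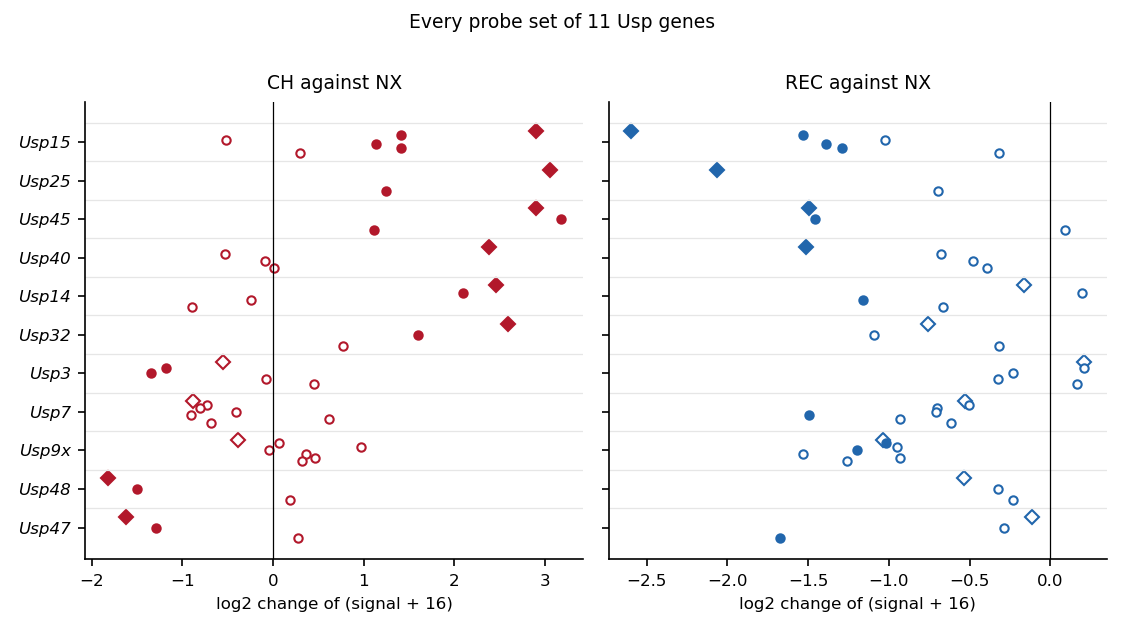
Log2 change of (signal + 16) for every probe set of 11 Usp genes, CH against NX at the left and REC against NX at the right. Diamonds are the probe sets used for the gene, circles the others, and filled symbols are called. The 3 probe sets of Usp45 are all filled at the left, while only the diamond of Usp40 is filled.

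Close relatives in the family were compared with each other by the difference of their log2 values on each array, for 15 pairs of genes and both comparisons with NX, 30 exact two-sided permutation tests in all. With 4 arrays against 4 the smallest p such a test can give is 0.0286, and 16 of the 30 reached it, 10 for CH and 6 for REC. After adjustment over the 30 the smallest was 0.0536, so that none passed 0.05, and at this number of tests no pair could pass unless most of the others also reached the smallest p. The difference of Usp25 less Usp28 between CH and NX was 4.40 (95% interval 3.57 to 5.24), and between REC and NX -1.53 (95% interval -2.12 to -0.93). Among the 3 DUSP relatives, Usp15 less Usp4 gave 2.12 (95% interval 1.38 to 2.86) and Usp15 less Usp11 4.11 (95% interval 2.89 to 5.34) in CH. In REC the same differences were -2.25 (95% interval -3.09 to -1.41) and -2.81 (95% interval -3.85 to -1.77). For Usp16 less Usp45 it was -3.88 (95% interval -4.81 to -2.95) in CH and 1.21 (95% interval 0.54 to 1.89) in REC. Usp40 less Usp47 came to 4.00 (95% interval 2.64 to 5.35) in CH. The difference of Usp36 less Usp42 was 1.09 (95% interval 0.81 to 1.38) in CH and -0.01 (95% interval -0.42 to 0.39) in REC. Usp12 less Usp46 was -1.29 (95% interval -2.26 to -0.32) in CH. The Usp20 less Usp33 difference in CH, 0.93 (95% interval -0.28 to 2.15), has an interval that holds 0, as has Usp9x less Usp24, 1.41 (95% interval -0.51 to 3.33). The scaling of an array cancels in these differences but for the pseudocount.

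**Figure D4:**
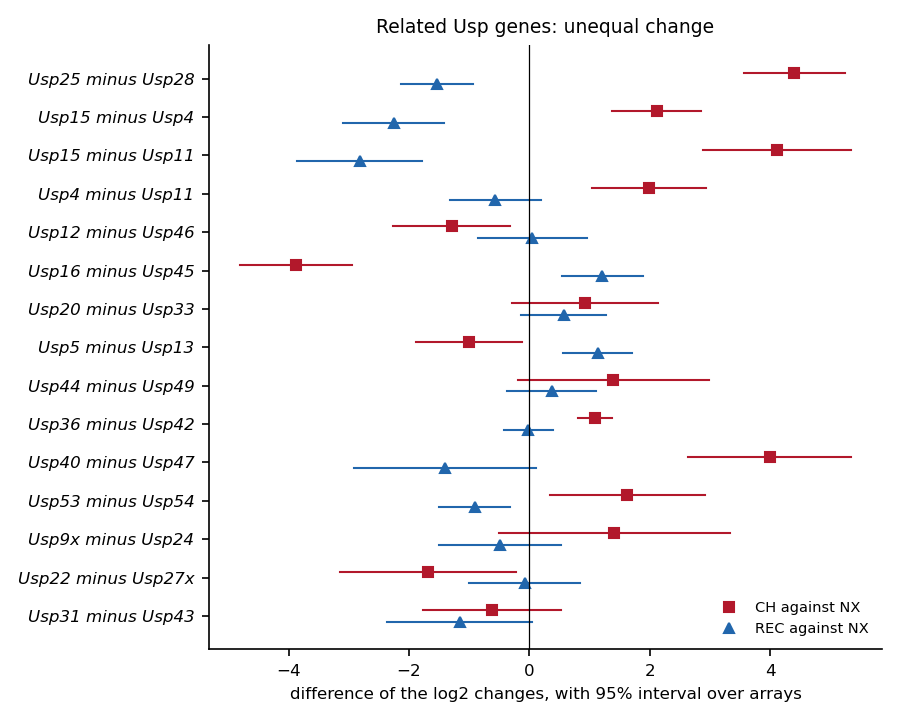
Difference between the log2 changes of 2 related Usp genes for 15 pairs, with 95% intervals over arrays, for CH against NX (squares) and REC against NX (triangles). The pairs with Usp15, Usp25, Usp40 or Usp45 lie farthest from 0, on opposite sides in CH and REC.

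Deubiquitinases outside the family were counted the same way. Of 30 measured of 33 listed, 7 were called higher in CH (Otub1, Otub2, Otud5, Yod1, Vcpip1, Cops5 and Brcc3) and 7 lower (Cyld, Otud1, Otud3, Otud4, Otulin, Tnfaip3 and Zup1), with a median of -0.07. Both shares are 23.3%, beside 9.08% higher and 19.5% lower of all genes. In REC 2 were called lower, Otud5 and Yod1, both also higher in CH, a share of 6.67% beside 1.79%. Yod1, an OTU peptidase that works with the Vcp ATPase, changed by 2.61 ± 0.30 in CH and -2.29 ± 0.30 in REC, and Otud5 by 2.49 ± 0.24 and -1.30 ± 0.24 (SE). The CH call of Otud5 was lost with quantile normalization (0.89) and scaling on the hybridization controls (0.88), and its REC call with that scaling (-0.49) and median centring (-1.14). Of 10 proteins that bind Usp members, 2 were called lower in CH, a share of 20% near the 19.5% of all genes. In REC 1 was called higher, 10% beside 2.5%. Wdr48, the activator of Usp1, Usp12 and Usp46, was lower in CH at -2.91 ± 0.63 (adjusted p = 0.00295). Its CH signals were 18.9, 0.891, 267 and 28.2 against 247 to 496 in NX, so that CH replicate 3 lay inside the NX range, and without that array the change was -3.73. Also lower was Atxn7, which holds Usp22 in SAGA, at -2.09 ± 0.40 (adjusted p = 0.00137). Eny2, of the same module, was called higher in REC at 1.29 ± 0.26 (adjusted p = 0.0125), a call lost without REC replicate 2 or 3 (adjusted p of 0.0525 and 0.0521). In the ISG15 system, whose modifier Usp18 removes, Ube2l6, the conjugating enzyme, averaged 6317 ± 1954 (SD, n = 4) in NX, then 27630.1 ± 4624 in CH, and 1086 ± 1069.6 in REC. It was called in both, at 2.16 ± 0.49 and -2.95 ± 0.49, whereas Usp18 was not. Of 4 genes listed for this system 3 were measured, Isg15 itself not among them. Uba7 (-0.57 in CH and 0.69 in REC) and Herc6 (0.73 and -0.34) were not called against NX. The CH call of Ube2l6 was lost with quantile normalization (0.41) and scaling on the hybridization controls (0.55). The 4 ubiquitin precursor genes listed had no probe set that names 1 gene alone and were not analysed here.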

How the data were processed

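Whole blood RNA was hybridized to Affymetrix mouse expression arrays, with 12 arrays in 3 groups of 4. The authors deposited 1 intensity per probe set and array, on a linear scale whose mean after trimming 2% at each end is near 150 on every array, which is the mark of global scaling. The Methods name the GeneChip Operating System for storing raw intensities and mention scaling factors, without saying that these are the deposited values. The Methods name an Agilent scanner and, for the study's own analysis, GC-RMA, which gives log2 values, unlike these. The label protocol describes a linear amplification kit, and the Methods a one-cycle labelling, so how the RNA was amplified is open. Actin 3' to 5' signal ratios were 1.61 to 1.86 in NX, 1.91 to 2.11 in CH and 1.54 to 1.73 in REC. The 100 brightest probe sets held 10.6 to 13.8% of the signal in NX, 19.9 to 22.1% in CH and 8.46 to 10.3% in REC. The part of these differences in the calls was not tested. The files used here give no detection call, batch or scan date, and the number of arrays limits the precision.

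Names came from GEO's annotation of the platform, and all 49 members matched a RefSeq gene number. Each gene was read by 1 probe set, of those that name it alone the brightest by mean log2 value over all 12 arrays. CH arrays count in that mean, so the choice can favour a probe set that is high in CH. For Usp14 the probe set used averaged 119 in NX and 828 in CH. Another averaged 212 in NX and was at -0.25 in CH, not called. limma 3.58.1 in R 4.3.3 fitted a mean per group to log2(signal + 16) of all 12 arrays (9 residual degrees of freedom), and p-values were adjusted by Benjamini-Hochberg over all 45101 probe sets. The fit was tested on simulated data with known changes. Related genes were compared with exact permutation tests. Values on every array were given for the 6 largest increases and 6 largest decreases called in CH, all calls in REC, genes called in both, and Usp7, Usp8, Usp9x, Usp14 and Usp18. Other genes named with values beyond this, such as Usp9y, Usp19, Usp34, Usp37 and Usp43, were chosen after their values were seen. The members, lists and pairs were chosen with earlier results of these data known. Alternatives were other array scalings, pseudocounts of 1 and 64, a filter on dim probe sets, other tests and thresholds, the 8 arrays of a comparison, array weights, all probe sets of a gene averaged, the replicate number as a block, and leaving out each array. Promoter windows came from RefSeq on GRCm38.p6. Python 3.11.15 with scipy 1.17.1 was used for the counts and permutation tests.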

Additional observations from a re-analysis of the deposited data

Results flagged for a closer look

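Among the 51 sets of 4 arrays formed by the 17 genes with values on every array, 2 had 1 array far from the other 3, where chance gives about 1 in 20. Usp7 read 1827 on REC replicate 4 and 1541 to 1568 on the other REC arrays. Usp53 read 265 on NX replicate 1 and 172 to 186 on the other NX arrays, and its fall in REC was not called without that array.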

How the results depend on the processing

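Of the 49 calls on single genes over the 3 comparisons, 14 held under every one of the 26 alternatives that could be run on them, and the calls of Usp15 and Usp25 in all 3 comparisons were among these. Scaling on the hybridization controls moved most counts. In CH against NX it gave 3 higher and 32 lower, in REC against NX 6 higher and 2 lower, in CH against REC 4 higher and 34 lower, and 2 genes higher in CH and lower in REC. An adjusted p under 0.001 left 5 lower in CH, 2 lower in REC, 5 lower in CH against REC and 2 in both. Averaging all probe sets of a gene gave 8 lower in CH against REC and 2 in both, and a pseudocount of 64 gave 6 lower in CH against REC. In REC against NX, quantile normalization, a pseudocount of 1 and the ordinary test without moderation gave 3 lower each, and 1 gene, Usp43, was higher with quantile normalization, median centring, array weights and the 8 arrays of the comparison. Leaving out each array gave 6 to 7 higher and 13 to 20 lower in CH, 0 to 1 higher and 3 to 6 lower in REC, 9 to 11 higher and 13 to 16 lower in CH against REC, and 3 to 4 in both. The cause was not tested for any of these.

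Uncalled values of other members are not listed here. Some of those also changed sign with scaling on the hybridization controls, such as Usp13 in CH against NX (-0.46). For the genes with values on every array and for calls on other genes, the log2 values that changed sign are as follows. With scaling on the hybridization controls in REC against NX, Usp7 was 0.28, Usp14 0.57, Usp24 0.23, Usp32 0.038, Usp33 0.30, Usp38 0.49, Usp42 0.57, Usp47 0.65 and Usp48 0.25. In CH against NX under the same scaling Usp18 was -1.10 and Usp53 -1.31, and in CH against REC Usp4 was -1.27, Usp8 -1.38, Usp9x -1.68, Usp19 -0.86 and Usp53 -0.61. With quantile normalization Usp14 was 0.0076 in REC against NX and Usp18 0.11 in CH against REC. With median centring Usp47 was 0.043 in REC against NX and Usp53 -0.055 in CH against NX. As means of their probe sets, Usp7 was 0.24 in CH against REC, and in CH against NX Usp9x was 0.25 and Usp53 -0.25. Without CH replicate 1, Usp18 was 0.32 in CH against REC and Usp53 -0.20 in CH against NX. In CH against NX, Usp53 was -0.041 without CH replicate 2 and Usp9x 0.11 without CH replicate 4. Over all left-out arrays Usp18 ran from -0.40 to 0.32 in CH against REC, and in CH against NX Usp53 ran from -0.20 to 0.46 and Usp9x from -0.73 to 0.11. Of these only Usp4, Usp19 and Usp53 in CH against REC had been called.

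The titles number the mice 1 to 4 in each group, and the main fit does not treat the numbers as pairs. Of 12 correlations between same-numbered arrays, from -0.20 to 0.44, 3 were over 0.1. These 3 were between NX and CH, at 0.44, 0.19 and 0.10 for replicates 1, 3 and 4, with replicate 2 at -0.20. Correlations with REC arrays were at most 0.067. Whether same-numbered NX and CH arrays were handled together was not tested. With the replicate number as a block, 7 members were higher and 13 lower in CH, 0 higher and 4 lower in REC, 10 higher and 15 lower in CH against REC, and 3 in both. The block ended the call of Usp40 in REC and no other call on a single gene.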
